A study of Mus musculus with 12 samples.

Results

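The genes described here are the mouse zinc finger genes whose name on the array was Zfp followed by a number. Their probes were taken by that name, the CCCH genes Zfp36, Zfp36l1 and Zfp36l2 were left out, and a gene was kept, with 1 probe, where a group had all of its 3 arrays well above background. Of 248 such names on the array, 214 genes were kept, out of 16740 genes kept in all. The other 34 names met this in none of the groups and are not described. RefSeq has since renamed 37 of the 214, among them Zfp99, now Zkscan14, and Zfp313, now Rnf114, and the names of the array are used throughout. The name covers several kinds of zinc finger, so the genes are a group by name and not by protein structure.

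RNA came from peritoneal macrophages of female mice aged 10 weeks, collected 96 h after an injection of thioglycolate, an irritant that draws phagocytes into the abdomen. All wells were loaded overnight with cholesterol at 10 µg/ml and then stood in medium with polymyxin B, which binds bacterial lipopolysaccharide, at 25 µg/ml. There were 4 groups of 3 arrays: C57BL/6 cells given apoA-I at 10 µg/ml for 2 h, C57BL/6 control cells, cells of MyD88-/- mice (called MyD88-null) given the same apoA-I, and MyD88-null control cells. ApoA-I, the chief protein of high-density lipoprotein, takes up cholesterol from cells, and MyD88 is the adaptor through which most Toll-like receptors signal. The study was run as 3 replicate experiments of 4 samples, and the sources do not say whether a sample was 1 mouse or a pool of mice, so the p-values cover no more than the spread among these samples. Of the 12 samples 2, MyD88-null apoA-I replicate 2 and C57BL/6 control replicate 2, have a free-text description that goes against the title on the apoA-I step, and the titles were followed here. Macrophage markers such as Cd68 and Lyz2 were above background on all 12 arrays, as were markers of B cells, mast cells and mesothelial or fibroblast cells, so other peritoneal cells were present in the RNA.

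Most proteins with this name carry C2H2 zinc fingers, small folds held by a zinc ion that read DNA bases, strung together by a short conserved linker. Many also carry a KRAB domain, which recruits the corepressor Trim28 (KAP1), and with it the histone methyltransferase Setdb1 and HP1 proteins, to silence transposable elements and nearby genes. Such genes arose by repeated duplication and stand in clusters, in mouse on chromosomes 7 and 17 among others. Like other regulators of transcription, they are usually expressed at low levels.

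The probes of 6 genes to which the results return are given with their place in build mm7, as the array files state it. Capitals mark the letters CANACNGGNGANAA, the coding sequence of the linker between fingers, searched on the strand of the probe. They are shown because a probe within the finger repeats could bind transcripts of related genes.
Zfp239, chr6:117898004-117898063, plus strand: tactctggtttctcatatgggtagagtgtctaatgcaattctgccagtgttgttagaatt
Zfp78, chr7:5940896-5940955, plus strand: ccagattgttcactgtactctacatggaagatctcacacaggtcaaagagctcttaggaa
Zfp99, chr5:144223804-144223863, minus strand: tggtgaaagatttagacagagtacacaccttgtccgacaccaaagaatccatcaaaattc
Zfp53, chr17:19688123-19688182, plus strand: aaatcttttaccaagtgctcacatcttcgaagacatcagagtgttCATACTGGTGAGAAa
Zfp263, chr16:3422149-3422208, plus strand: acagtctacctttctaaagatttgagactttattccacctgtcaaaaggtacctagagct
Zfp296, chr7:17262951-17263010, plus strand: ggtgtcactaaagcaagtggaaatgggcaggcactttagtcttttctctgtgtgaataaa
Among these probes the linker letters stood in that of Zfp53. They stood in 6 of the 214 probes, 2.8%, against 0.104% of all probes of the array. A run of 20 bases shared with a probe of another gene was found for 5 of the 214, Zfp248, Zfp51, Zfp52, Zfp72 and Zfp97, whose values may therefore mix related transcripts. The other 209 probes shared no such run with another probe, and 73.7% of them were lower with apoA-I in C57BL/6 cells and 68.9% in MyD88-null cells.

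Signals are given as log2 of the processed intensity relative to the array's 75th percentile, so a negative value lies below that percentile. On this scale the mean levels of the Zfp genes over the 12 arrays ran from -4.65 for Zfp406 to 4.76 for Zfp313, and 57.5% of them lay below the median of all genes. Brightness depends on the probe as well as on its transcript, so these levels do not rank the transcripts. The median level of the 214 genes was -1.05, -1.0 and -0.73 in the C57BL/6 cells with apoA-I, against -0.51, -0.58 and -0.41 in the C57BL/6 control cells. It was -0.58, -0.88 and -0.57 in the MyD88-null cells given apoA-I, against -0.42, -0.43 and -0.43 in the MyD88-null control cells. In both genotypes all 3 treated arrays lay below all 3 control arrays. The median over all genes stayed between -0.25 and -0.12 on the same 12 arrays.

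**Figure D1:**
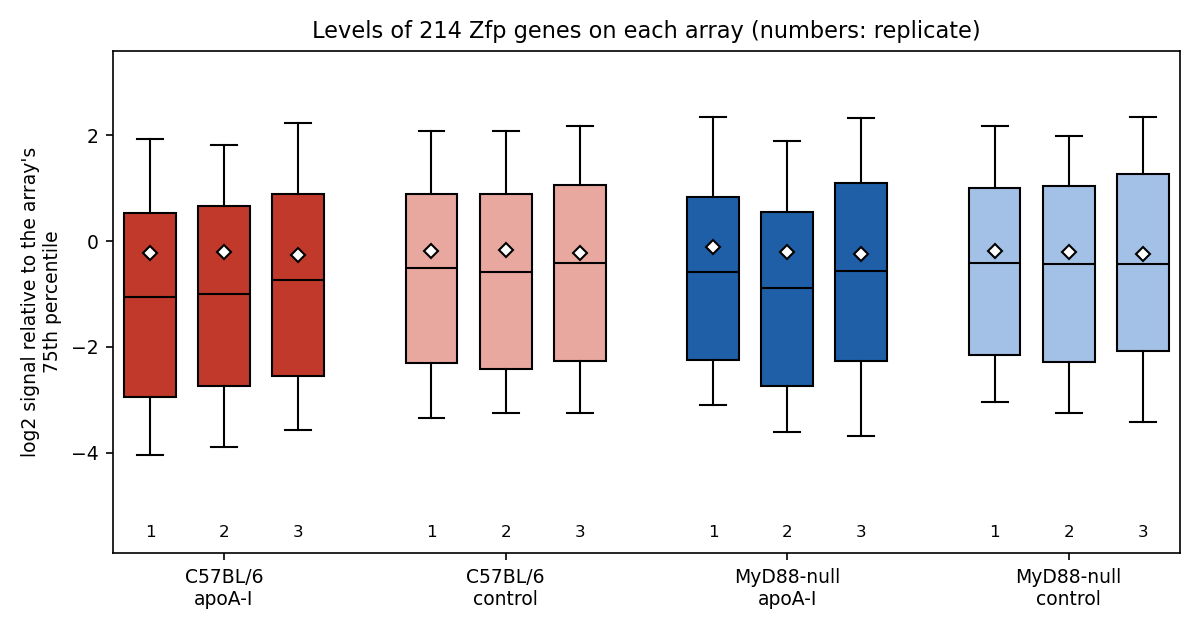
Levels of the 214 Zfp genes on each of the 12 arrays, as log2 signal minus that of the array's 75th percentile. Boxes span the quartiles, the black line is the median, whiskers reach the 10th and 90th percentiles and white diamonds mark the median of all 16740 genes. The black medians of the apoA-I arrays, -1.05 to -0.57, lie below those of the control arrays of the same genotype, while the diamonds stay between -0.25 and -0.12.

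The MyD88-null apoA-I array of replicate 1 stood apart from the others. It had the lowest 75th percentile, 199.5 intensity units against up to 1408 on the other arrays, and the highest share of probes above background, 73.64%. It held the highest value of the 12 arrays for 26.8% of all genes and for 19.2% of the Zfp genes. The share of lower genes and the counts of called genes in MyD88-null cells are therefore given with and without it. Other results over MyD88-null cells, such as those by pair, brightness or position, include it. Before the Zfp genes, the targeted gene was checked. Myd88 had 2.75, 3.25 and 2.43 in MyD88-null cells given apoA-I, against 4.17, 4.30 and 3.41 in C57BL/6 cells with apoA-I. It had 1.87, 2.10 and 1.40 in MyD88-null control cells, against 3.48, 3.49 and 2.96 in C57BL/6 control cells. The null groups lay below the C57BL/6 groups without overlap, by a log2 difference of -1.52 in control cells (limma adjusted p = 0.215, and 0.00396 with the replicate number as a block). Whether the probe lies in the deleted part of the gene was not tested.

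The first comparison asked what apoA-I did in C57BL/6 macrophages. Most Zfp genes were lower with apoA-I: 159 of 214, or 74.3%, against 50.3% of all 16740 genes. Their median log2 change was -0.31, with quartiles at -0.59 and 0.003, against a median of -0.002 for all genes. The share of lower genes was 77.1%, 70.6% and 62.1% in the 3 experiments, against 57.6%, 50.7% and 42.7% of all genes in the same experiments. The groups were separate, with all 3 treated arrays below all 3 control arrays, for 41 Zfp genes, against 6.36% of all genes. All 3 treated arrays lay above all 3 control arrays for 7 Zfp genes, against 6.76% of all genes. The median log2 change of the Zfp genes was -0.39, -0.27 and -0.15 in experiments 1, 2 and 3, and each experiment had more Zfp genes lower than higher.

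Of these changes 2 passed a Benjamini-Hochberg adjusted p of 0.05 in limma, both downward, where the share of all genes called lower was 0.0179%. Neither gene, Zfp239 or Zfp78, was above background on all 12 arrays, and Zfp78 was kept through control groups only. Of the 180 Zfp genes that were, limma called none lower, against 1 of all 14154 such genes. At an unadjusted p below 0.05, 26 of these Zfp genes were lower, against 480 of the 14154. A limma fit over such genes alone also called none, against 0.0282% of all genes in it. Of the 214 genes 13 were kept through control groups only and 1 through an apoA-I group only, so that a lower or higher value with apoA-I was favoured by the rule itself, and 200 were kept through both. No Zfp gene was called higher, against 0.812% of all genes, while 33 were lower and 4 higher at an unadjusted p below 0.05, against 3.16% and 4.25% of all genes. With the replicate number as a block, 18 were called lower and 2 higher, against 1.04% and 2.37% of all genes. Only the fit differs between these counts, since the block leaves the log2 changes as they are.

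Zfp239, a C2H2 zinc finger gene on chromosome 6, fell with the smallest adjusted p of the Zfp genes. It had -4.23, -4.61 and -4.12 in the C57BL/6 cells with apoA-I, against -3.20, -3.21 and -3.24 in the C57BL/6 control cells. The groups do not overlap, and the probe was well above background on 2 of the 3 treated arrays and on all 3 control arrays. The log2 change was -1.10 (SE 0.189, limma adjusted p = 0.0277, and 0.00553 with the replicate block). In MyD88-null cells it had -3.32, -3.61 and -3.54 with apoA-I, against -2.88, -3.15 and -2.95 in control cells, a log2 change of -0.50 that did not pass (limma adjusted p = 0.445). The difference between these changes, MyD88-null minus C57BL/6, was 0.60 (SE 0.268) with an adjusted p of 1 in limma and an unadjusted p of 0.0488. Normexp background correction, run in place of the processed signal, added an offset of 50 intensity units, which draws log2 changes of dim probes toward zero. With it the change in C57BL/6 cells was -0.21 (adjusted p = 1). The call was also lost when any of 7 of the 12 arrays was left out, as when C57BL/6 apoA-I replicate 2 was left out (-0.95, adjusted p = 0.153).

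Zfp78, on chromosome 7, was kept through the control groups only, where it was the brighter, so its values are a description and its call is no support for a fall. It was not well above background on any of the C57BL/6 arrays with apoA-I. Its fold is therefore given with these arrays raised to the lowest value above background of any probe. It had -4.62, -4.59 and -4.74 there, against -3.55, -3.55 and -3.59 in the C57BL/6 control cells. On that basis it was 2.07-fold lower with apoA-I, which is no strict lower limit for this probe. The measured log2 change was -1.09 (SE 0.209, limma adjusted p = 0.0474, and 0.0196 with the replicate block). In MyD88-null cells it had -3.77, -4.53 and -3.93 with apoA-I, where 1 of 3 arrays was above background, against -3.37, -3.34 and -3.43 in control cells. The groups were separate in both genotypes, and the change in MyD88-null cells was -0.69 (limma adjusted p = 0.261). With normexp background correction and its offset of 50 units the change in C57BL/6 cells was -0.10 (adjusted p = 1). The call was lost when any of 10 of the 12 arrays was left out (adjusted p of 0.0164 to 0.209 over all 12).

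Promoters of Zfp239, Zfp78 and Zfp53 are shown because these had the smallest adjusted p among genes lower with apoA-I, 2 in C57BL/6 cells and 1 in MyD88-null cells. RefSeq promoters, 250 bases before to 50 bases after the gene's start in build GRCm38.p6, were matched for 170 of the 214 genes, 79.4%, which is too few for a summary over the group. Capitals mark matches to 5 motifs, each searched on both strands. The GC box, which binds Sp1 and related factors, was searched as GGGCGG. The box that binds the factor NF-Y was searched by its letters CCAAT. The box found near the start of some genes, which binds the TATA-binding protein, was searched as TATAAA. The motif of Ets factors was searched as CCGGAAG, and the cyclic AMP response element (CRE) as TGACGTCA.
Zfp239, first of its 2 listed promoters, chr6:117861774-117862073, plus strand: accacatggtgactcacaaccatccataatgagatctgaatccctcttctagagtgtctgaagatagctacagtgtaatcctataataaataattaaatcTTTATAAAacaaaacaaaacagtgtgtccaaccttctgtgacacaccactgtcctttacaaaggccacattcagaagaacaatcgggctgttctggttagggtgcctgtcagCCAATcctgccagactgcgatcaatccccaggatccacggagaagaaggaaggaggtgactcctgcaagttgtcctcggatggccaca
Zfp78, chr7:6363058-6363357, plus strand: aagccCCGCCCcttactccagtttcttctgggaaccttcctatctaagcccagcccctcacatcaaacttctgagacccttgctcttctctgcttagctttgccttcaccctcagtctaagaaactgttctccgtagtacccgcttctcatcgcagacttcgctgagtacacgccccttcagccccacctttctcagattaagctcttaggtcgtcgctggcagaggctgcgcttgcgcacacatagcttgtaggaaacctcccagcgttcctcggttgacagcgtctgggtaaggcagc
Zfp53, chr17:21488738-21489037, plus strand: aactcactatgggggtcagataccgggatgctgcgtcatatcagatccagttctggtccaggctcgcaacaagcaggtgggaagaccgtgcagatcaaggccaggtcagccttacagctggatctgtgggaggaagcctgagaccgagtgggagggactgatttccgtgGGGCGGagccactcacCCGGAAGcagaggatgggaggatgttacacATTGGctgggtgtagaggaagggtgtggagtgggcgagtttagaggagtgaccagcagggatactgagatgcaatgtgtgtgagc
The Zfp239 window held a CCAAT match and 2 overlapping TATAAA matches, 1 on each strand. The Zfp78 window held a GC box, and that of Zfp53 a GC box, an Ets match and a CCAAT match. Among 32851 RefSeq promoters of the same length, 35.7% held the GC box, 37.4% CCAAT, 13.6% TATAAA, 8.86% the Ets letters and 1.79% the CRE. The windows held 4, 13 and 9 CpG in Zfp239, Zfp78 and Zfp53, against a median of 7 over all promoters.

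The other Zfp genes with the lowest separate changes in C57BL/6 cells did not pass without the block. Zfp99 (Zkscan14) had -1.71, -1.25 and -0.66 with apoA-I, against -0.27, 0.07 and 0.41 in control cells, a log2 change of -1.28 (SE 0.317, limma adjusted p = 0.148, and 0.0251 with the block). The treated arrays lay below all the control arrays. Zfp710 had 2.62, 2.28 and 3.16 with apoA-I, against 4.02, 3.87 and 3.73 in control cells. Its log2 change was -1.19 (SE 0.273, limma adjusted p = 0.106, and 0.0396 with the block), and its second probe gave -1.06. Zfp667 had -3.35, -3.96 and -3.09 with apoA-I, against -2.46, -2.40 and -1.99 in control cells, and gave an adjusted p of 0.299, or 0.0196 with the block. The log2 change was -1.05 for Zfp12 (limma adjusted p = 0.286, and 0.0421 with the block) and -1.33 for Zfp101 (limma adjusted p = 0.282, and 0.0321 with the block). Zfp101 was above background on 2 of the 3 treated arrays. Zfp14 had the lowest of the separate changes, -1.90 (SE 0.659, limma adjusted p = 0.404, and 0.0252 with the block), but was above background on 1 of the 3 treated arrays, where its values ran from -6.65 to -4.06.

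**Figure D2:**
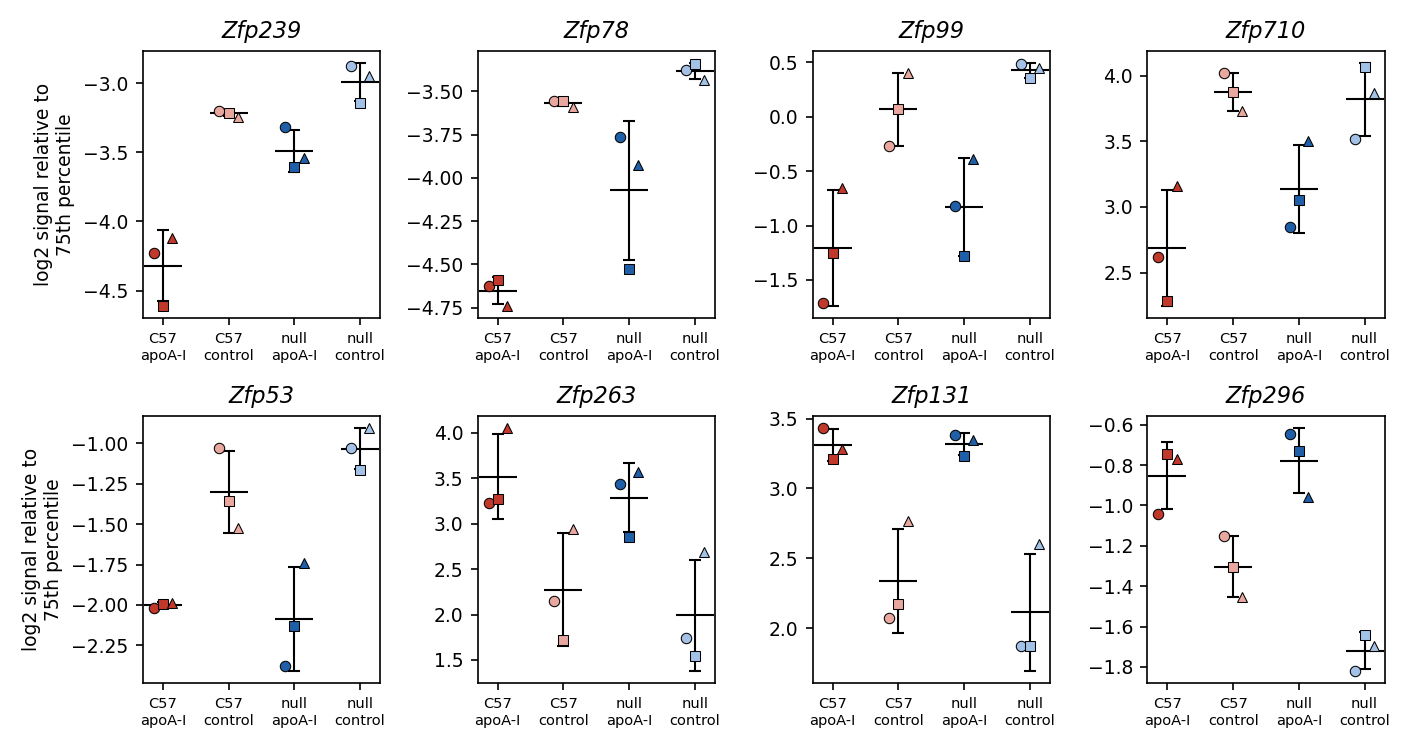
Levels of 8 Zfp genes on the 12 arrays, as log2 signal minus that of the array's 75th percentile, with each panel on its own scale. Circles, squares and triangles are replicates 1, 2 and 3, bars show the mean and SD over 3 arrays, and "C57" and "null" stand for C57BL/6 and MyD88-null. Zfp239, Zfp78, Zfp99, Zfp710 and Zfp53 lie lower with apoA-I in both genotypes, and Zfp263, Zfp131 and Zfp296 lie higher.

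The 18 genes called lower with the block had log2 changes of -1.90 to -0.74, with adjusted p of 0.00553 to 0.046. Beside the 8 named above, they were Zfp161 (Zbtb14), Zfp287, Zfp467, Zfp499 (Zbtb45), Zfp512, Zfp61, Zfp647, Zfp690 (Zscan29), Zfp704 and Zfp95 (Zkscan5), which are named after their values were seen. All 18 also had a negative log2 change in MyD88-null cells. Zfp78, counted among the 18, was kept through control groups only.

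A few Zfp genes lay higher with apoA-I. Zfp263, which codes for a DNA-binding C2H2 protein, had 3.23, 3.27 and 4.05 in C57BL/6 cells with apoA-I, against 2.15, 1.72 and 2.95 in control cells. All treated arrays lay above all control arrays, with a log2 change of 1.25 (SE 0.41, limma adjusted p = 0.351, and 0.0111 with the block), and its other probes gave 1.19 and 1.22. Zfp131, whose probe the array files place on no known chromosome, had 3.44, 3.21 and 3.28 with apoA-I, against 2.07, 2.17 and 2.77 in control cells. Its change was 0.97 (SE 0.256, limma adjusted p = 0.19, and 0.0416 with the block). Zfp598, whose human counterpart is a ubiquitin ligase that senses collided ribosomes, had 2.61, 3.28 and 2.72 with apoA-I, against 2.25, 2.34 and 1.88 in control cells, and did not pass either fit (limma adjusted p = 0.377, and 0.0983 with the block). Zfp533 (Zfp385b) had a log2 change of 0.85, with 1 of 3 control arrays above background, and did not pass (limma adjusted p = 0.934).

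The second comparison asked for the same response without MyD88. In MyD88-null macrophages 149 of 214 Zfp genes, or 69.6%, were lower with apoA-I, against 45.2% of all genes. The median log2 change was -0.25, with quartiles at -0.53 and 0.11, against 0.05 for all genes. The share of lower genes was 60.7%, 73.4% and 73.4% in the 3 experiments, against 44%, 51.4% and 41.7% of all genes. Without the array that stood apart it was 71.5%, against 49.4% of all genes. Without MyD88-null apoA-I replicate 2, whose description goes against its title, it was 61.7%, against 41% of all genes. Where the 2 conflicting descriptions were followed in place of the titles, it was 51.4%, against 39.8% of all genes, while the share in C57BL/6 cells was 75.2%, against 45.5%.

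All 3 treated arrays lay below all 3 control arrays for 37 Zfp genes in MyD88-null cells, against 5.35% of all genes, and above them for 7, against 6.28%. No Zfp gene was called lower in limma, where 0.0119% of all genes were, and 23 were lower at an unadjusted p below 0.05, against 2.71% of all genes. A single Zfp gene, Zfp296, was called higher, against 1.13% of all genes, and 6 were higher at an unadjusted p below 0.05, against 5.95% of all genes. With the replicate block 8 were called lower and 4 higher, against 0.609% and 3.46% of all genes. Without the array that stood apart, the block fit called 3 lower and 3 higher in MyD88-null cells, against 0.197% and 2.28% of all genes, and 24 lower and 2 higher in C57BL/6 cells, against 1.62% and 3.08%.

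Zfp296, on chromosome 7, is known from pluripotent cells and as a gene that aids reprogramming. It had -0.64, -0.73 and -0.96 in MyD88-null cells given apoA-I, against -1.82, -1.64 and -1.70 in MyD88-null control cells, and the groups do not overlap. The log2 change was 0.94 (SE 0.181, limma adjusted p = 0.0367, and 0.0147 with the block), and its second probe gave 0.70. In C57BL/6 cells it had -1.04, -0.74 and -0.77 with apoA-I, against -1.15, -1.31 and -1.45 in control cells, a change of 0.45 that did not pass (limma adjusted p = 0.565). The call in MyD88-null cells was lost when any of 10 of the 12 arrays was left out (log2 change of 0.88 to 1.03 and limma adjusted p of 0.0471 to 0.183 over all 12), and with normexp background correction (0.78, adjusted p = 0.26).

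Zfp53, in the cluster on chromosome 17, had the smallest p of the lowered genes in MyD88-null cells. It had -2.38, -2.13 and -1.74 with apoA-I, against -1.03, -1.16 and -0.91 in control cells, a log2 change of -1.05 (SE 0.214, limma adjusted p = 0.0508, and 0.0264 with the block). Its second probe gave -1.11. In C57BL/6 cells it had -2.02, -1.99 and -1.99 with apoA-I, against -1.03, -1.36 and -1.52 in control cells, so the groups were separate in both genotypes. Its neighbour Zfp52, a gene whose probe shares a run with those of 7 other genes, had -0.11, 0.41 and 1.20 in MyD88-null cells given apoA-I, against 1.44, 1.36 and 1.81 in control cells, and did not pass (limma adjusted p = 0.295, and 0.0501 with the block).

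Zfp99 again lay among the lowest. It had -0.82, -1.28 and -0.39 in MyD88-null cells given apoA-I, against 0.49, 0.35 and 0.44 in control cells, a change of -1.26 (SE 0.317, limma adjusted p = 0.132, and 0.0237 with the block) beside the -1.28 of C57BL/6 cells. Zfp472, also on chromosome 17, had -1.05, -0.99 and -0.58 with apoA-I, against 0.29, -0.25 and 0.07 in MyD88-null control cells, with adjusted p of 0.148, or 0.034 with the block, and its further probes gave -0.68 and -1.02. Zfp386, Zfp566, Zfp30 and Zfp251 had log2 changes of -1.15, -1.05, -1.09 and -0.94, with separate groups, and passed neither fit (limma adjusted p of 0.284 to 0.727, and 0.0713 to 0.2 with the block). The further probes of Zfp386 gave -0.78, -0.56 and 0.44, so its probes disagree in sign.

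Of the 8 genes called lower with the block in MyD88-null cells, Zfp61 and Zfp99 were also called in C57BL/6 cells. The rest were Zfp120, Zfp278 (Patz1), Zfp31 (Zscan20), Zfp383, Zfp472 and Zfp53, of which those outside the lists above are named after their values were seen. All 8 had a negative log2 change in C57BL/6 cells. The 4 called higher were Zfp131, Zfp263, Zfp296 and Zfp689, and Zfp131 and Zfp263 were called in both genotypes. Zfp689 had a log2 change of 1.35 by the probe used, and its second probe gave 0.32. Zfp131 had 3.38, 3.23 and 3.35 in MyD88-null cells given apoA-I, against 1.87, 1.87 and 2.60 in control cells (log2 change 1.21, limma adjusted p = 0.063, and 0.0152 with the block). Zfp263 had 3.44, 2.85 and 3.56, against 1.75, 1.54 and 2.68 in control cells (log2 change 1.29, limma adjusted p = 0.295, and 0.00751 with the block). Zfp217, which codes for a corepressor-bound zinc finger protein amplified in human breast tumours, had a change of 0.78 with separate groups and did not pass (limma adjusted p = 0.267).

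**Figure D3:**
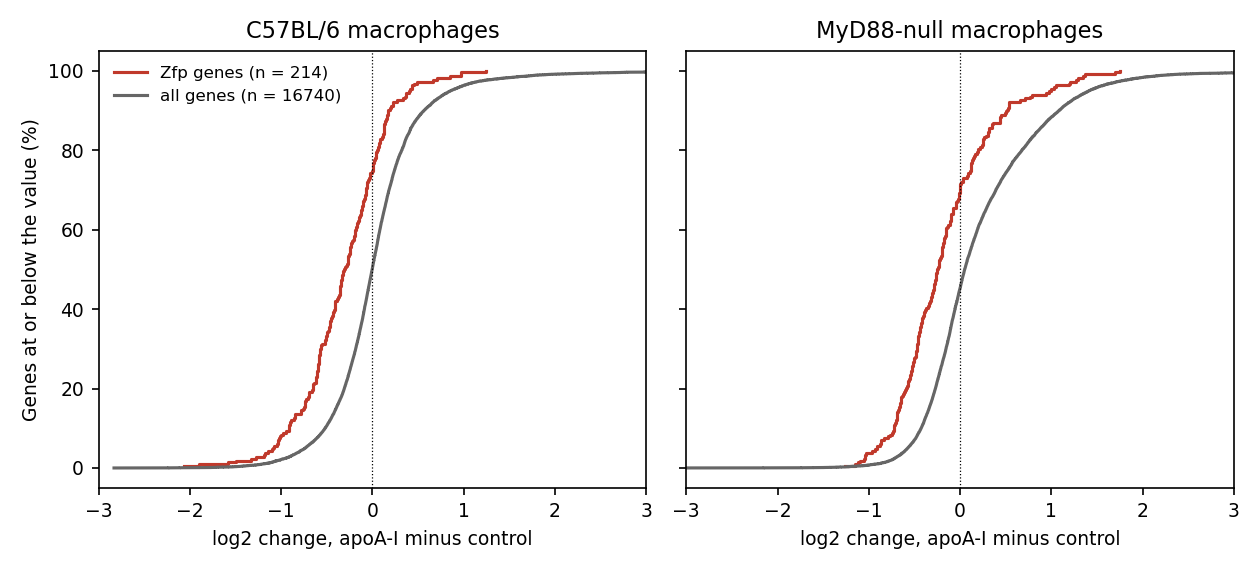
Cumulative share of genes, in percent, against their log2 change with apoA-I, in C57BL/6 cells and in MyD88-null cells. The red line is the 214 Zfp genes and the grey line all 16740 genes. At a change of 0 the Zfp line stands at 74.3% in C57BL/6 cells and 69.6% in MyD88-null cells, against 50.3% and 45.2% for all genes.

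The groups of the 2 genotypes hold different samples, so their responses can be set side by side gene by gene. They come from the same 3 experiments, and deviations of same-numbered arrays correlated across genotypes at 0.296 to 0.769. The 2 responses are therefore not independent. Of the 214 genes, 132 (61.7%) were lower with apoA-I in both genotypes, against 31% of all genes, and 38 (17.8%) were higher in both, against 35.6%. Lower in C57BL/6 cells alone were 27, and in MyD88-null cells alone 17, against 3228 and 2373 of all 16740 genes. The treated and control arrays of 1 experiment and genotype made 6 pairs. In all 6 pairs 70 Zfp genes were lower, 32.7% against 12% of all genes. A further 50 were lower in 5, a count that was not made for all genes. Higher in all 6 were 16, 7.48% against 11.6% of all genes. Separate groups, lower in both genotypes, were seen for 21 genes, 9.81% against 2.16% of all genes. Over the 180 genes above background on all 12 arrays, 72.2% were lower in C57BL/6 cells and 70.6% in MyD88-null cells, against 50.3% and 50.2% of all genes above background on all 12.

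**Figure D4:**
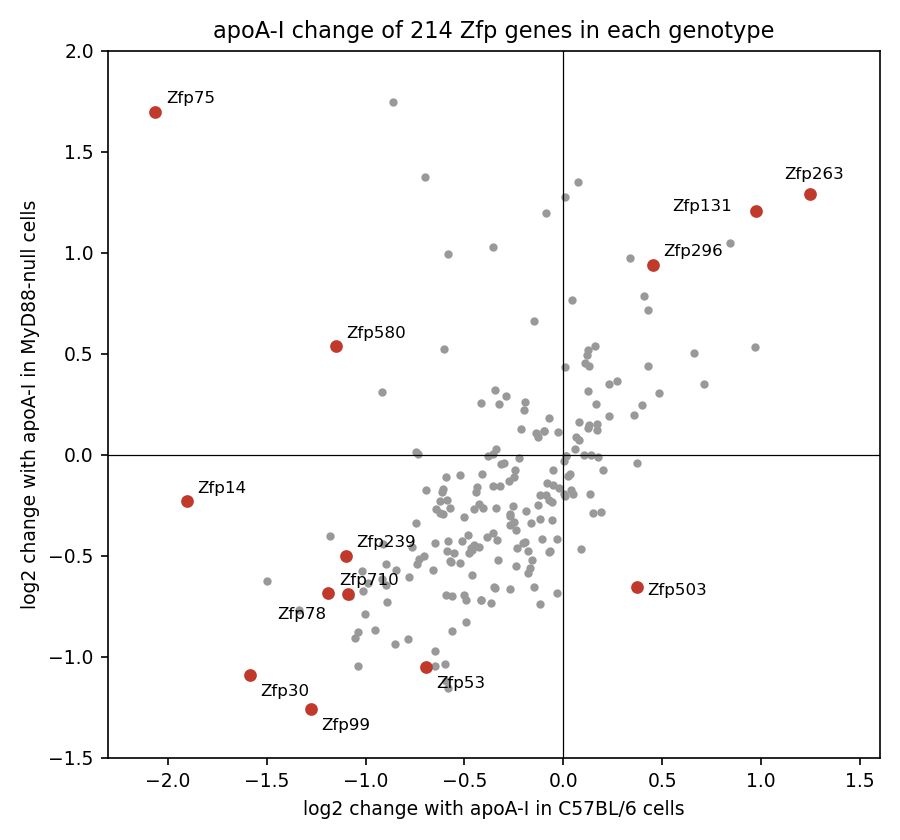
Log2 change with apoA-I of each of the 214 Zfp genes, in C57BL/6 cells on the horizontal axis and in MyD88-null cells on the vertical axis, with 13 genes named. Most points, 132, lie at the lower left and 38 at the upper right. Zfp75, at the upper left, has an SE of 1.23 for each change.

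The third comparison asked whether the response differs between genotypes. No Zfp gene had a difference that passed in limma, with or without the block, and no gene of the whole set did, so the background is 0. At an unadjusted p below 0.05, 2 Zfp genes had a higher response in MyD88-null cells and none a lower one, against 0.98% and 0.191% of all genes. These were Zfp239, above, and Zfp608. Zfp608 had -1.16, -1.35 and -1.70 in MyD88-null cells given apoA-I, against -1.78, -1.56 and -1.82 in control cells, a change of 0.32. In C57BL/6 cells it had -1.56, -1.62 and -1.66 with apoA-I, against -1.43, -1.11 and -1.27 in control cells, a change of -0.34. The difference was 0.67 (SE 0.275, limma adjusted p = 1).

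Other genes that the rule named for this difference had smaller or less even values. Zfp75 (Zfp317) had 4.35, -0.29 and -0.74 in MyD88-null cells given apoA-I, against 0.06, -1.30 and -0.54 in control cells, so its high value rests on the array that stood apart. In C57BL/6 cells it had -0.82, 2.17 and -0.11 with apoA-I, against 2.49, 1.74 and 3.19 in control cells, and its second probe gave -0.37 and -0.21 where the first gave -2.06 and 1.70. Zfp503, Zfp189 and Zfp655 had differences of -1.02, -0.65 and -0.62, each with a limma adjusted p of 1.

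Between genotypes the Zfp genes were more often higher in MyD88-null cells. In control cells 31.3% were lower in MyD88-null cells, against 47.3% of all genes, with a median log2 difference of 0.12, against 0.02. In cells with apoA-I 29.4% were lower, against 41.7%, with a median of 0.16, against 0.07. The comparisons between genotypes use the same arrays as the responses to apoA-I, so they are not independent of them. No Zfp gene passed in either in limma, where 0.0777% of all genes were called lower and 0.0179% higher in control cells, and 0.0478% and 0.0179% in cells with apoA-I. In control cells 3 were lower and none higher at an unadjusted p below 0.05, against 2.35% and 1.17% of all genes. In cells with apoA-I 1 was lower and 7 higher, against 1.73% and 2.19%. With the block none passed in control cells, against 0.526% of all genes called lower and 0.0657% higher. With the block Zfp14 passed as higher in MyD88-null cells given apoA-I (log2 difference 2.34, SE 0.659, adjusted p = 0.0488, and 0.941 without the block), against 0.0418% of all genes called higher, and none passed as lower, against 0.185%.

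The groups of control cells were separate, higher in MyD88-null cells, for 19 Zfp genes, against 6.85% of all genes, and lower for 3, against 3.48%. Named among them by rule, Zfp336 (Gzf1), Zfp533 and Zfp566 were higher, by 0.54, 0.58 and 0.54, and Zfp296, Zfp608 and Zfp75 lower, by log2 differences of -0.42, -0.45 and -3.06. In cells with apoA-I the groups were separate, higher in MyD88-null cells, for 8, against 3.21% of all genes, and lower for Zfp503 alone, against 2.41%. Zfp503 had -0.56, 0.68 and 0.42 in MyD88-null cells given apoA-I, against 0.90, 1.72 and 1.53 in C57BL/6 cells with apoA-I. Zfp551 had -1.38, -1.87 and -1.88, against -2.79, -2.19 and -2.10. Neither passed (limma adjusted p of 0.987 and 0.998).

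Genes grouped by the role of their proteins gave small counts, beside 50.3% of all genes lower in C57BL/6 cells and 45.2% in MyD88-null cells. Of 8 Zfp genes known to silence imprinted genes or transposable elements, Zfp445, which protects imprints, was the 1 kept, at a log2 change of -0.33 in C57BL/6 cells and 0.25 in MyD88-null cells. Zfp57, Zfp42 and Zfp459 were on the array but not kept, with 4, 2 and 0 of the 12 arrays well above background. Of 12 genes with a reported part in immune or inflammatory signalling 11 were kept, and 6 were lower in C57BL/6 cells and 4 in MyD88-null cells, with none called in limma and Zfp263 called with the block. Among them Zfp91, a ubiquitin ligase of the noncanonical NF-kappaB pathway, had 2.41, 2.15 and 2.87 in C57BL/6 cells with apoA-I, against 2.76, 2.78 and 3.45 in control cells (log2 change -0.52, limma adjusted p = 0.925). Zfp64 had -0.39 in C57BL/6 cells and -0.41 in MyD88-null cells. Zfp292, Zfp318 and Zfp148 had -0.65, -0.35 and -0.34 in C57BL/6 cells. Zfp281, Zfp313 and Zfp335 had 0.49, 0.27 and 0.13 there, and Zfp35 had 0.06. Zfp580 had 1.15, 0.91 and -1.34 in MyD88-null cells given apoA-I, against 0.77, 0.12 and -1.80 in control cells, and its arrays varied as widely in C57BL/6 cells with apoA-I (SD 1.26).

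Of 12 genes with general roles in transcription, splicing, translation or mitosis 9 were kept, 4 of them lower in C57BL/6 cells and 6 in MyD88-null cells, with none called. Zfp207 (BuGZ), a spindle and kinetochore protein, had log2 changes of 0.09 in C57BL/6 cells and -0.47 in MyD88-null cells. Zfp143, which activates promoters of small nuclear RNA genes, had 0.40 and 0.25. Zfp106, Zfp326, Zfp346, Zfp384, Zfp622 and Zfp706 lay between -0.43 and 0.35 in both genotypes.

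The share of lower genes differed with brightness, but dim genes could be kept through control groups or apoA-I groups alone. All 13 Zfp genes kept through control groups only were lower in C57BL/6 cells, and 10 of them in MyD88-null cells. Of the 200 kept through both, 146 and 139 were lower. How these genes fell among the brightness bins was not counted. All genes were divided by mean level into 4 bins of equal size. For C57BL/6 cells 83.7%, 78.4%, 73.5% and 43.5% of the Zfp genes were lower in the dimmest to the brightest bin, with 49, 74, 68 and 23 genes, against 47.9%, 53.5%, 57.6% and 42% of all genes. The brightest bin lay near the share of all genes. In MyD88-null cells the shares were 67.3%, 73%, 69.1% and 65.2%, against 17.8%, 42%, 63.9% and 56.9% of all genes. The median of all genes in the dimmest bin was 0.63 in MyD88-null cells, and 0.04 in C57BL/6 cells. By experiment it was 0.811, 0.597 and 0.446 in MyD88-null cells, the first with the array that stood apart. The 17.8% is thus a share among dim probes, and of all genes above background on all 12 arrays 50.2% were lower in MyD88-null cells.

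**Figure D5:**
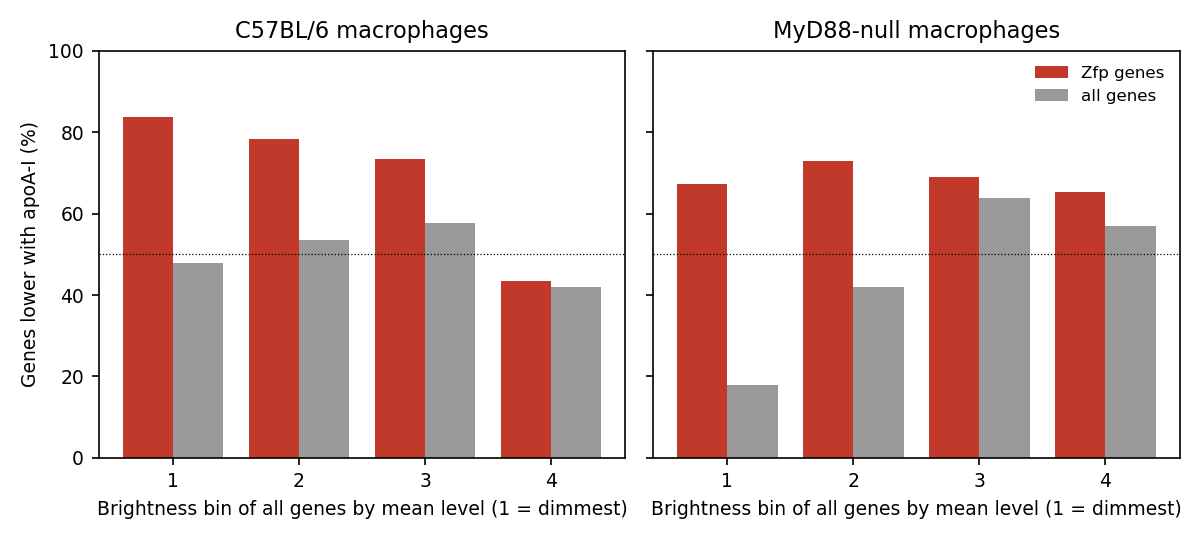
Percent of genes lower with apoA-I, for the Zfp genes (red) and all genes (grey), by brightness bin of all genes ranked by mean level, from the dimmest (1) to the brightest (4). For C57BL/6 cells the Zfp bar stands at 43.5% in bin 4, beside 42% of all genes. In MyD88-null cells the grey bar of bin 1 stands at 17.8% and the red bar at 67.3%. Bin 1 holds dim probes, and the MyD88-null bars include the array that stood apart.

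Position was examined next. Of the 214 genes 106 lay within 500 kb of another Zfp gene named on the array, kept or not, by probe positions. Of these 80.2% were lower in C57BL/6 cells and 74.5% in MyD88-null cells, with medians of -0.45 and -0.38. Of the 108 with no such neighbour 68.5% and 64.8% were lower, with medians of -0.19 and -0.15. Genes of 1 cluster share sequence and position, so they are not independent, and the difference between these sets was not tested. On chromosome 7, 54 Zfp genes were measured, of which 79.6% were lower in C57BL/6 cells and 68.5% in MyD88-null cells, against 49.7% and 40.5% of all genes on that chromosome. On chromosome 17, 19 were measured, of which 89.5% and 84.2% were lower, against 47.3% and 44.6%. On chromosome 2, 13 were measured, of which 53.8% and 46.2% were lower, against 49.5% and 45.1%. Chromosomes 5, 15 and 9 held 14, 10 and 12 Zfp genes. Of these 85.7%, 90% and 58.3% were lower in C57BL/6 cells, against 54.1%, 49.1% and 50.1% of all genes there. In MyD88-null cells 78.6%, 80% and 66.7% were lower, against 47.3%, 42.2% and 44.4%. High shares were thus not confined to chromosomes 7 and 17, and the remaining chromosomes are not listed here.

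Other genes of related name or function were set beside them. Of all genes 50.3% were lower in C57BL/6 cells and 45.2% in MyD88-null cells. A further 92 genes that RefSeq now names Zfp, under other names on the array, were lower in 78.3% of cases in C57BL/6 cells and 62% in MyD88-null cells. Of 177 of the 214 that still carry the name 76.3% and 71.8% were lower, and of the 37 renamed 64.9% and 59.5%. Of 32 Zbtb genes, which join zinc fingers to a BTB domain, 59.4% and 50% were lower, of 6 Zscan or Zkscan genes under those names 83.3% in each genotype, and of 15 Klf genes 33.3% in each. The 3 measured Egr genes, early growth response factors with zinc fingers, were higher in both. The CCCH gene Zfp36, which codes for tristetraprolin, an RNA-binding protein that speeds decay of cytokine messages, was left out by the rule. It had 3.57, 3.17 and 2.19 in C57BL/6 cells with apoA-I, against 1.74, 1.39 and 0.91 in control cells (limma adjusted p = 0.106, and 0.00249 with the block), so its groups did not overlap.

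The KRAB corepressor genes were examined as the machinery with which many of these proteins work. Of 32 listed genes 31 were measured, and none passed in limma. In each genotype 19 of them, 61.3%, were lower with apoA-I, against 50.3% of all genes in C57BL/6 cells and 45.2% in MyD88-null cells. Their median log2 changes were -0.071 in C57BL/6 cells and -0.075 in MyD88-null cells. Trim28 had 2.71, 2.50 and 2.30 in C57BL/6 cells with apoA-I, against 2.88, 2.75 and 2.43 in control cells, a log2 change of -0.18 (limma adjusted p = 1). Setdb1 had -0.45 in C57BL/6 cells and -0.75 in MyD88-null cells, and neither passed (limma adjusted p of 0.973 and 0.445). With the block Pphln1, a HUSH complex subunit, was called higher in C57BL/6 cells (log2 change 0.73, limma adjusted p = 0.0425, and 0.325 without the block), where 2.37% of all genes were.

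Markers of other cells were read on the same arrays, and in bulk RNA fewer cells of a type and less RNA per cell cannot be told apart. The summed level of 7 macrophage markers ran from 9.48 to 10.33 in cells with apoA-I, against 9.13 to 9.74 in control cells, over both genotypes. The 5 B cell markers ran from 2.05 to 3.10, against 2.17 to 3.16, and the 7 mesothelial or fibroblast markers from 6.01 to 7.93, against 5.74 to 7.83. The ranges overlap for each of these lists, but by pairs of treated and control arrays of 1 experiment and genotype some lists lay on one side. The macrophage sum was higher with apoA-I in 6 of 6 pairs, by log2 differences of 0.05 to 0.79, and so was that of 3 dendritic cell markers, by 0.23 to 1.33. The brightest of the 7 macrophage markers was Lyz2, and they did not move together. Lyz2, Cd14, Cd68 and Adgre1 changed by 0.32, 1.61, 0.19 and 0.09 in C57BL/6 cells, and by 0.63, 1.01, -0.28 and -0.13 in MyD88-null cells. Csf1r, Itgam and Fcgr1 changed by -0.3, -0.37 and -0.41 in C57BL/6 cells, and by 0.03, -0.1 and -0.31 in MyD88-null cells. The sums of T cell, natural killer cell, neutrophil and mast cell markers were higher in 5 of 6 pairs and that of mesothelial or fibroblast markers in 4 of 6. Those of B cell, eosinophil and red blood cell markers were higher in 3 of 6. The natural killer genes Ncr1 and Eomes were above background on 1 and 0 of the 12 arrays. Their part in the results on the Zfp genes was not tested.

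The arrays came on 5 slides scanned on 3 days. Each day and slide held more than 1 group, except slide 4, which held C57BL/6 control replicate 3 alone. The C57BL/6 treated and control arrays of replicate 3 thus lay on different slides. Within the slides that held both a treated and a control array of a genotype, 77.1% and 70.6% of the Zfp genes were lower in C57BL/6 cells (slides 1 and 2), against 57.6% and 50.7% of all genes. In MyD88-null cells 55.6% and 73.4% were lower (slides 3 and 5), against 43.9% and 41.7%. On slide 3 the treated array was of replicate 1 and the control array of replicate 2, so that pair crosses experiments. The pairs on slides 1, 2 and 5 are also pairs of 1 experiment, whose shares are given above. By scan day, 77.1% and 62.1% were lower in C57BL/6 cells, against 53.7% and 42.7% of all genes. In MyD88-null cells 75.2%, 55.6% and 73.4% were lower, against 58.9%, 43.9% and 41.7%. On day 1 the MyD88-null treated array was of replicate 2 and the control array of replicate 1, and day 2 held the arrays of slide 3. More Zfp genes were lower than higher within each of these, which reuse the arrays, and in part the pairs, of the shares by experiment.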

How the data were processed

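Total RNA of each sample was labelled with Cy3 (500 ng) and hybridised to a one-colour Agilent array. Spot intensities in the deposited scanner files came from Agilent Feature Extraction (9.5 per the submitters' processing notes, with 9.5.1.1 and 9.5.3.1 in the headers). Per the file headers, processed intensity is background-corrected and detrended within the array, and it is not scaled between arrays. The mean and local background intensities in the same deposited files are raw. The deposited value table follows the log10 of the processed intensity (correlation 0.99257 to 0.99974). Its direction was thus settled, while its scaling and centring between arrays stay unknown. Its column medians for replicates 1, 2 and 3 were 1.8402, 1.841 and 1.8346 in C57BL/6 apoA-I cells, 1.8435, 1.8408 and 1.8283 in C57BL/6 control cells, 1.8333, 1.846 and 1.8225 in MyD88-null apoA-I cells, and 1.8386, 1.8676 and 1.8435 in MyD88-null control cells.

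From the deposited intensities, log2 of the processed signal minus the array's 75th percentile was computed (199.5 to 1408 intensity units), outlier spots left out, saturated spots kept and spots of a probe averaged. Of 41174 probes 24351 passed the background rule, and the probe with the highest mean stood for a gene. From 57.56% to 73.64% of probes were above background per array, and 3 arrays a group limit the precision. Non-members were named by RefSeq genes (GRCm38.p6), and coordinates are mm7. A model with 4 group means was fitted to 12 arrays in limma 3.58.1 (R 4.3.3), with two-sided p-values adjusted over all 16740 genes by Benjamini-Hochberg. It was tested on simulated data. Numbers were taken to pair the samples: the design text names 3 experiments of 4 samples. Deviations of same-numbered arrays correlated at 0.296 to 0.859 in all pairs. All arrays of replicate 3 were scanned on day 3 with version 9.5.3.1, and the others on days 1 and 2 with 9.5.1.1. The correlations therefore cannot tell the experiment from the scan batch. The fit with the number as a block was therefore printed beside results that it changes.

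Named genes were those called in a comparison, the 8 lowest and 4 highest with separate groups in each response to apoA-I, 3 each way in the other comparisons, and the members of the role lists. The members and lists were chosen with earlier results of these data known. A gene below background on all arrays of a group has an approximate bound, since the limit used is not that of its own probe. The other group's mean is set against the mean of the arrays below background. Each of these is raised to the array's lowest value of any probe above background where it lies under that. Protein sequences were not used here, so genes were not divided by domain. Alternatives changed scaling, background correction, filter, probes, samples, blocks and labels. Figures were drawn with matplotlib.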

Additional observations from a re-analysis of the deposited data

Results flagged for a closer look

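In 7 of the 214 Zfp genes, 3.27% against 3.16% of all genes, every experiment of one genotype moved one way with apoA-I and every experiment of the other the opposite way. The difference of the log2 responses, MyD88-null minus C57BL/6, was 0.666 for Zfp608, 1.688 for Zfp580, 1.382 for Zfp114 and 0.341 for Zfp111, which were higher with apoA-I in MyD88-null cells and lower in C57BL/6 cells. It was -1.023 for Zfp503, -0.441 for Zfp364 and -0.324 for Zfp653, which went the opposite way. Each was tested in limma as an interaction, and none passed (adjusted p = 1 for each). The unadjusted p was 0.0359 for Zfp608, 0.0701 for Zfp503 and between 0.191 and 0.576 for the other 5. Zfp111, Zfp114, Zfp364 and Zfp653 are named after their values were seen.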

How the results depend on the processing

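The share of Zfp genes that were lower with apoA-I stayed above the share of all genes under each alternative run. It moved by more than the SD between experiments, 7.5 points in C57BL/6 cells and 7.28 in MyD88-null cells, under these settings. With normexp background correction it was 65.9% in C57BL/6 cells and 58.4% in MyD88-null cells (41.7% and 43.2% of all genes), and without a filter on dim probes it was 62.1% of 248 genes in MyD88-null cells (30.3%). It was 51.4% in MyD88-null cells with treatments taken from the descriptions (39.8%), and 61.7% without the 2 samples whose descriptions conflict, or without MyD88-null apoA-I replicate 2 alone (41%). Leaving out each of the 12 arrays in turn gave 70.1% to 77.1% in C57BL/6 cells and 61.7% to 71.5% in MyD88-null cells. Scaling changed the share of all genes, from 48.9% under median centring to 57.1% under quantile normalization in C57BL/6 cells.

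The counts of called genes were less stable. In C57BL/6 cells the count called lower, 2, was 1 under quantile normalization, median centring, the deposited table and every probe on its own, and 0 under normexp, without a filter, over probes above background on all 12 arrays, with the descriptions' treatments, without the 2 conflicting samples and in a fit of the 2 groups alone. Leaving out 1 array gave 0 to 2 lower and 0 higher, and the count stayed at 2 without MyD88-null apoA-I replicate 1 or 2 and was lower without any of the other 10 arrays. In these Zfp239 had adjusted p from 0.026 to 0.153 and Zfp78 from 0.0164 to 0.209. The counts need not name the same genes: under quantile normalization and in the deposited table neither Zfp239 (adjusted p of 0.482 and 0.441) nor Zfp78 (0.583 and 0.537) was the 1 called. In MyD88-null cells the count called higher, 1, was 0 under quantile normalization, median centring, normexp, no filter, the descriptions' treatments, without the 2 conflicting samples and in a fit of the 2 groups alone, and 1 gene was called lower over probes above background on all 12 arrays. Leaving out 1 array gave 0 to 1 lower and 0 to 2 higher there, and 0 to 0 in the comparisons between genotypes and their difference. Zfp296 had adjusted p from 0.0471 to 0.183 when 1 array was left out, and 0.128 in the deposited table, where another gene was the 1 called.

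Blocks raised the counts, of all genes as well, whose share is given in brackets. In C57BL/6 cells the replicate block called 18 lower (1.04%) and 2 higher (2.37%), slide as a random block 23 (1.87%) and 3 (2.63%), and scan day as a block 9 (0.323%) and 1 (1.61%). In MyD88-null cells these were 8 (0.609%) and 4 (3.46%), 13 (0.699%) and 6 (3.24%), and 3 (0.173%) and 3 (1.96%). Between genotypes with apoA-I the replicate block called 1 (0.227%) and the slide block 1 (0.263%), and the replicate block changed no call in the other 2 comparisons. Added after the data were seen, the replicate block without MyD88-null apoA-I replicate 1 called 24 lower (1.62%) and 2 higher (3.08%) in C57BL/6 cells, and 3 (0.197%) and 3 (2.28%) in MyD88-null cells. Over probes above background on all 12 arrays it called 19 (1.76%) and 2 (2.89%), and 14 (1.07%) and 4 (3.71%). Of the single genes named, 79 alternative values gained and 51 lost a call, 20 moved, 2878 stayed and none reversed a called direction. The cause of these changes was not tested. Dim probes limit the result: 34 of the 214 genes were below background on at least 1 array.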
